A study of Mus musculus with 3 samples.

Results

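The variable segments of the T cell receptor α and β chains were followed through single-cell RNA libraries of mouse spleen CD4+ T cells. The members were all genes whose symbol starts with Trav or Trbv followed by a digit, which gave 128 Trav and 35 Trbv genes, 163 of the 31053 genes in the tables. The rule used gene symbols and no measured value, but it was set with earlier results of these data known. All 163 gene identifiers were found in the GENCODE M21 annotation (GRCm38, the assembly called mm10), where 22 Trbv and 108 Trav members are annotated as genes and 13 Trbv and 20 Trav members as pseudogenes.

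The study asked which genes CD4+ T cells need for activation, and compared 3 libraries, 1 per group. All cells came from spleens of C57BL/6 mice that carried floxed Ift20 (Ift20 f/f, called WT here), were enriched for naive CD4+ T cells and were sorted as 7AAD-CD3+CD4+. The unstimulated WT library held cells in DPBS (0 h), and the stimulated WT library held cells cultured for 24 h with antibodies to CD3 and to CD28, each at 1 μg/mL. The stimulated IFT20-KO library had the same stimulation, with cells from Ift20 f/f CD4 cre mice, in which Cre under the Cd4 promoter deletes Ift20 in T cells of both the CD4 and the CD8 lineage. The study used male mice of 5 to 10 weeks of age, and how many mice gave each library is not given in the sources used here. With 1 library per group, a difference between groups cannot be told apart from a difference between mice, cultures or library preparations, so values are given with counting intervals and no p-value.

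A T cell assembles the gene of each receptor chain in the thymus, by joining 1 of many variable (V) segments to a joining (J) segment. In the β chain a diversity segment lies between them. For most segments the joining removes the DNA between the joined V and J segments, while V segments on the far side of the chosen one stay on the chromosome. Recombination is over in mature spleen CD4+ T cells, so a cell keeps the V segments it has joined, each of which many clones share, and antibodies to CD3 trigger the receptor complex whatever V segment it carries. Rag1 and Rag2, which encode the recombinase, had 0, 0 and 1 UMI and 0 UMIs in any library, with the unstimulated WT library given first, stimulated WT second and IFT20-KO last, here and wherever 3 values stand together.

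UMIs (unique molecular identifiers) count captured RNA molecules. Barcodes were kept where over 200 genes were detected and mitochondrial genes took less than 15% of UMIs, which left 8031, 9903 and 13920 barcodes with 37133949, 116979076 and 106435143 UMIs. Median depth was 4627, 12167 and 5014.5 UMIs per barcode, and the IFT20-KO library was spread most widely, with quartiles at 2443 and 11911 UMIs. Ift20 itself, the targeted gene, was at 64.4, 76.0 and 6.60 UMIs per 1000000 UMIs (CPM), in the direction of the labels. Of the 5 markers of CD4+ T cells, all were detected, at a summed 2343 to 2626 CPM, while S100a8 and Klrb1b were at 0 UMIs. Summed levels were 9.16 to 28.7 CPM for the 2 CD8 markers, nearly all from Cd8b1 with Cd8a at 0.120 to 0.291, 0.496 to 2.69 CPM for the 4 γδ T cell markers and 76.4 to 80.4 CPM for the 4 myeloid markers, nearly all from Cst3. Pairs of libraries shared 114 to 197 barcodes.

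Some V segments exist as near-identical copies, which sets what a count can show. The α locus holds a duplicated stretch whose copies are marked d and n in the symbols, and reads that match 2 genes equally well are not counted for either. The coding starts of Trav11 (chr14:53519303-53519859), Trav11d (chr14:52824357-52824912) and Trav11n (chr14:53135122-53135678) are shown from base 1 to base 120 because Trav11 is the segment of the invariant receptor of NKT cells. All sequences here are coding sequence from GENCODE M21 (GRCm38), 5′ to 3′ on the plus strand. Capitals mark the positions where the 3 copies are not all the same.
Trav11: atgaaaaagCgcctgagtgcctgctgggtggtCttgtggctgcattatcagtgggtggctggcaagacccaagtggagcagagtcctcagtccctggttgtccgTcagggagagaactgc
Trav11d: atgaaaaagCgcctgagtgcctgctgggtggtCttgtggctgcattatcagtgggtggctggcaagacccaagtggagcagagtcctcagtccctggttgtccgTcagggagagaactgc
Trav11n: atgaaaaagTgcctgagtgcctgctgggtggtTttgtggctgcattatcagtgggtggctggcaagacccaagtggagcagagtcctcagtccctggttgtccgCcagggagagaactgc

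Trav11 and Trav11d were identical over all 342 bases they share, and Trav11n, annotated as a pseudogene, differed from Trav11 at 8 of 343 bases. Trav11 had 1, 2 and 1 UMIs, Trav11d had 0 in every library, and Trav11n had 14, 26 and 34. The NKT marker Zbtb16, a transcription factor of innate-like T cells, had 15, 2 and 1 UMIs. Across the chain, 38 Trav members, 34 of them annotated as genes, had no 90-base window of their own among the transcripts of all members, and all 38 had 50 UMIs or fewer over the 3 libraries. Of the 90 Trav members with at least 1 window of their own, 74 had more than 50 UMIs. All 35 Trbv members had windows of their own.

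The 35 Trbv segments gave 77674, 158671 and 151546 UMIs, and at least 1 of these UMIs was found in 94.3%, 95.4% and 97.1% of barcodes. The 128 Trav segments gave 30377, 50685 and 51592 UMIs in 77.9%, 77.8% and 78.8% of barcodes. Trbv UMIs were concentrated in 23 members with more than 50 UMIs, 7 Trbv members were at 0, and the only pseudogene past 50 UMIs was Trbv24. For Trav, 74 members had more than 50 UMIs and 24 were at 0. Annotated pseudogenes took 0.329% of Trbv UMIs and 1.23% of Trav UMIs, with Trav8-2 the largest among them at 191, 458 and 642 UMIs.

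The levels of both chains were lower in CPM in the stimulated WT library than in the unstimulated one. Trbv segments summed to 2092, 1356 and 1424 CPM, a log2 ratio of -0.62 (95% counting interval -0.64 to -0.61) between stimulated and unstimulated WT. Trav segments summed to 818, 433 and 485 CPM, a log2 ratio of -0.92 (-0.94 to -0.90). Because the stimulated barcodes held more UMIs in all, the number of UMIs per barcode went the other way, with log2 ratios of 0.73 for Trbv and 0.44 for Trav. The intervals cover counting error only and are too narrow, since many UMIs of 1 cell come from the same rearranged gene.

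Of the members with at least 10 UMIs over both WT libraries, 14 of 24 Trbv and 66 of 78 Trav members were more than 1.5-fold lower in CPM after stimulation, 0 Trbv and 1 Trav member were more than 1.5-fold higher, and the median log2 ratios were -0.67 and -1.03. Over all 13297 genes, 34.3% were lower and 29.1% higher by the same measure, with a median log2 ratio of -0.09. Between the stimulated libraries, IFT20-KO over WT, the log2 ratio of the summed level was 0.07 (0.06 to 0.08) for Trbv and 0.16 (0.14 to 0.18) for Trav. None of the 24 Trbv members passed 1.5 fold in either direction, while 8 of 78 Trav members were higher and 4 lower, beside 13.4% higher and 3.27% lower among all 13504 genes. The small KO differences lay near the median of all genes, 0.14, and turned to -0.10 and -0.0087 under median-ratio scaling.

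The genes that build the rest of the receptor did not share one direction. Trac, the constant gene of the α chain, was at 247, 255 and 246 CPM. The β constant genes Trbc1 and Trbc2 together were at 483, 464 and 376 CPM. Between IFT20-KO and stimulated WT their log2 ratio was -0.30 (-0.32 to -0.28). V segment UMIs outnumbered those of the constant genes in every library, by 4.33, 2.92 and 3.79 Trbv UMIs per Trbc UMI and 3.32, 1.70 and 1.97 Trav UMIs per Trac UMI.

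Among the CD3 subunits that carry the signal of the receptor, Cd3d was at 1005, 912 and 929 CPM and Cd3e at 1022, 905 and 938 CPM. Cd3g was at 965, 593 and 633 CPM, and Cd247, which encodes the ζ chain, at 394, 170 and 140 CPM. Stimulated over unstimulated WT, Cd3d and Cd3e differed by less than 0.2 on the log2 scale, whereas Cd3g and Cd247 had log2 ratios of -0.70 and -1.21, so that of these 4 genes the latter pair was past 1.5 fold.

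Genes of earlier stages or other lineages were rare. Dntt, which adds bases at the joints during recombination, had 92, 12 and 13 UMIs, and Ptcra, the partner of the β chain before α is joined, had 3, 1 and 1. Trdc, the constant gene of the δ chain, had 71, 56 and 112 UMIs. Tcrg-C1 had 10, 1 and 3, Tcrg-C2 had 7, 1 and 1, and Tcrg-C4 had 12, 0 and 6 UMIs. The 6 Trdv segments summed to 520, 771 and 874 UMIs, or 14.0, 6.59 and 8.21 CPM. The 7 γ V segments summed to 42, 11 and 16 UMIs. The 60 Traj segments summed to 83, 161 and 141 UMIs, or 2.24, 1.38 and 1.32 CPM, and the 14 Trbj segments to 0.

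To compare the use of segments, each barcode was assigned to the segment with the most UMIs of its chain where that segment had at least 2 UMIs and more than 50% of the chain's UMIs, and usage is the share of assigned barcodes. A Trbv segment was assigned in 6570, 7887 and 8732 barcodes, or 81.8%, 79.6% and 62.7%, and a Trav segment in 52.1%, 52.9% and 39.6%. Barcodes without an assigned Trbv segment were shallow in every library, with medians of 2761, 2303.5 and 2547 UMIs beside 4792.5, 13080 and 9679 in those with one. The unstimulated WT library had a higher assigned share than the IFT20-KO library. Its median depth was lower, but its lower quartile of depth was higher, at 3632 against 2443 UMIs. The part of depth in the lower IFT20-KO share was not tested. Barcodes with at least 2 UMIs but no majority segment made up 3.06%, 4.34% and 12.9% for Trbv.

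The Trbv repertoire was led by the same 5 segments in all 3 libraries. Trbv13-2 (chr6:41121396-41121832), which encodes the segment known to immunologists as Vβ8.2, had 13.5%, 13.1% and 15.3% of assigned barcodes. Trbv3 had 10.6%, 12.7% and 13.9%, Trbv31 had 9.80%, 9.40% and 11.1%, Trbv19 had 8.28%, 8.94% and 7.42%, and Trbv1 had 7.397%, 8.58% and 9.01%. These 5 held 49.6%, 52.7% and 56.8% together. As a share of Trbv UMIs, Trbv13-2 had 12.7%, 12.8% and 14.5% and Trbv31 had 8.68%, 10.2% and 11.3%. Trbv3 had 10.5%, 13.3% and 12.9%, Trbv19 had 5.98%, 7.41% and 6.33%, and Trbv1 had 11.6%, 14.1% and 12.9%. In this measure Trbv3 and Trbv1 were lower in IFT20-KO than in stimulated WT, though higher in usage. At the other end, Trbv12-1, Trbv12-2 and Trbv23 were each under 1% in every library.

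**Figure D1:**
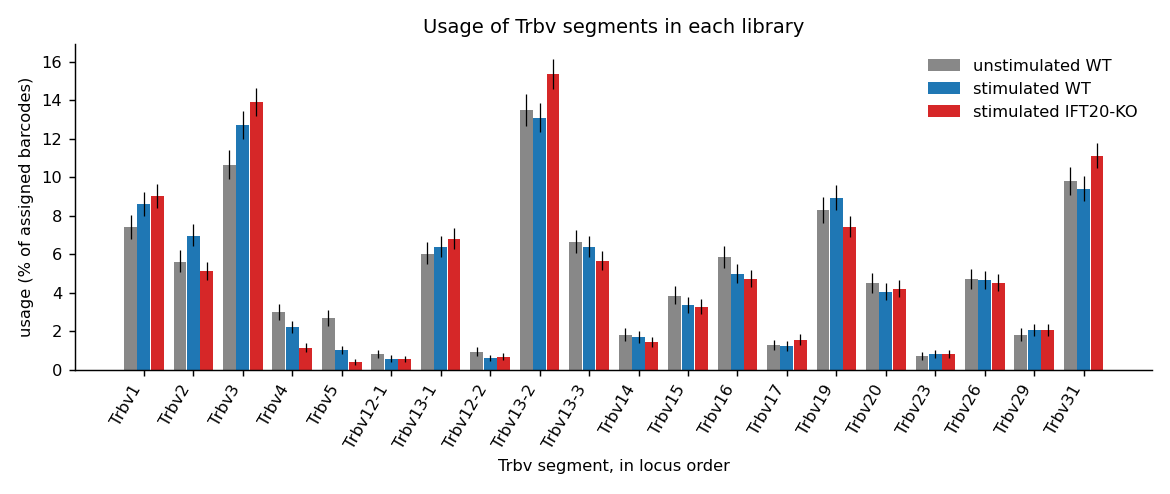
Bars show the usage of each Trbv segment with at least 50 assigned barcodes in any library, as a percentage of the barcodes assigned to a Trbv segment, in locus order, with 1 library per colour and 95% Clopper-Pearson intervals as error bars. Trbv13-2 is highest in all 3 libraries at 13.1% to 15.3%, and Trbv5 goes from 2.66% to 1.00% and 0.378%.

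Usage in stimulated WT cells was close to that in unstimulated WT cells. Of the 21 Trbv segments with at least 50 assigned barcodes over both libraries, 2 differed by more than 1.5 fold, both lower, and the interval of the ratio included 0 for 14. The sum of the absolute usage differences divided by 2, which is the share of barcodes that would have to change segment for the repertoires to match, was 6.13 percentage points. This sum lies above 0 from sampling alone, by an amount that was not estimated. Usage has no counterpart among all genes, whose CPM passed 1.5 fold in 63.4% of cases here and in 16.6% between the stimulated libraries.

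Trbv5 (chr6:41062332-41062803) stood furthest from equality. It was assigned in 175, 79 and 33 barcodes, or 2.66% (2.29 to 3.08), 1.00% (0.794 to 1.25) and 0.378% (0.2603 to 0.530), so that the 3 intervals did not overlap. The log2 ratio of usage was -1.41 (-1.81 to -1.02) for stimulated over unstimulated WT. Its level went from 25.3 to 4.86 CPM and then 5.67 CPM, so that between the stimulated libraries the usage was lower and the level was not.

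The number of Trbv5 UMIs per assigned barcode was also the lowest among the 19 Trbv segments with at least 50 barcodes in unstimulated WT, with medians of 3, 2 and 2, beside a threshold of 2. As a share of Trbv UMIs, Trbv5 had 1.21%, 0.358% and 0.399%. At least 1 of its UMIs was found in 521, 381 and 487 of the 8031, 9903 and 13920 kept barcodes. The usage difference between IFT20-KO and stimulated WT, a log2 ratio of -1.41 (-2.04 to -0.80), was thus not seen in the UMI share, whose log2 ratio was 0.15. The assignment threshold was varied among the alternatives described at the end, where Trbv usage at other thresholds is given only as counts of segments. The part of the threshold in the Trbv5 usage difference was not tested.

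Its neighbour Trbv4 (chr6:41059394-41059886) had 2.97%, 2.19% and 1.13% of assigned barcodes and 33.1, 10.96 and 9.71 CPM. The log2 ratio of usage was -0.44 (-0.74 to -0.13) after stimulation and -0.95 (-1.32 to -0.59) for IFT20-KO over stimulated WT. In the UMI share the latter was -0.25. Among barcodes with at least 5000 UMIs it was -0.63, and for Trbv5 -1.23. The ratio after stimulation moved with the measure, to -0.97 in the UMI share, -2.39 when barcodes were thinned to 1400 UMIs, which left 78 and 14 assigned barcodes, and -0.12 among barcodes with at least 5000 UMIs.

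The other segment past 1.5 fold after stimulation was Trbv12-2, with 59 and 46 assigned barcodes and a log2 ratio of -0.62 (-1.21 to -0.04), followed by Trbv12-1 at -0.54 (-1.15 to 0.07). The 3 highest ratios were those of Trbv30 at 0.58 (-0.27 to 1.47), Trbv2 at 0.31 (0.12 to 0.50) and Trbv3 at 0.26 (0.12 to 0.40). Trbv30 rested on 19 and 34 barcodes and its interval included 0.

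Between the stimulated libraries, 2 of 21 Trbv segments, Trbv4 and Trbv5, differed by more than 1.5 fold, both lower in IFT20-KO. The interval of the ratio included 0 for 14, and the same summed difference was 6.65 percentage points. Trbv2 was next among the lower ones, at 6.96% in stimulated WT and 5.13% in IFT20-KO, a log2 ratio of -0.44 (-0.62 to -0.26). As a share of Trbv UMIs it differed less, at 3.18% and 2.87%. The highest ratios were those of Trbv17 at 0.35 (-0.04 to 0.74), Trbv31 at 0.24 (0.10 to 0.38) and Trbv13-2 at 0.23 (0.11 to 0.35).

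**Figure D2:**
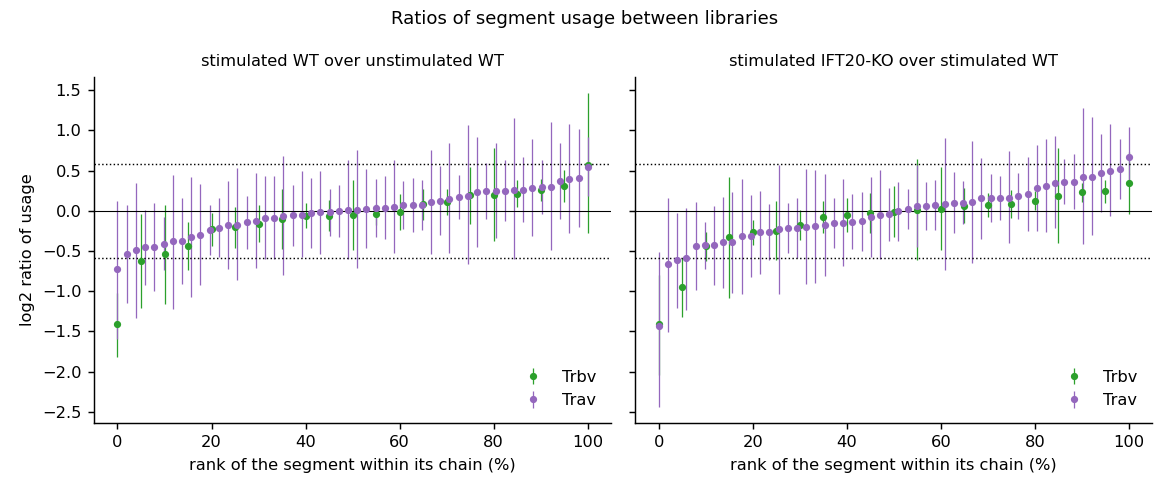
Points show the log2 ratio of usage of each segment with at least 50 assigned barcodes over both libraries, ranked within its chain, with 95% counting intervals, for 21 Trbv and 52 Trav segments in each comparison. Dotted lines mark 1.5 fold, and most points lie between them, with Trbv5 lowest of the Trbv segments in both panels at -1.41.

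RNA per cell differed between segments. In unstimulated WT, the median number of UMIs of the own segment per assigned barcode ran from 3 for Trbv5 to 19 for Trbv15 and Trbv17 among the same 19 segments. In stimulated WT the medians ran from 2 for Trbv5 to 31 for Trbv1, and in IFT20-KO from 2 for Trbv5 to 17 for Trbv1. Trbv1 went from 17 to 31 and Trbv3 from 10 to 17 after stimulation, while Trbv15 stayed at 19 and Trbv17 went from 19 to 18. These numbers are not scaled to depth, and barcodes with an assigned Trbv segment had median depths of 4792.5, 13080 and 9679 UMIs. Trbv13-2 had 8, 13 and 9 UMIs and Trbv2 had 4, 6 and 5.

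Trav usage was spread more evenly. The 5 most used segments held 20.8%, 21.2% and 22.7% of barcodes, and no segment had more than 5.21%. Trav14n-3 (chr14:53370077-53370575) was the most used in each library, at 4.54%, 5.13% and 5.21%. In unstimulated WT the largest shares of Trav UMIs were those of Trav4-4-dv10 (4.59%), Trav14d-3-dv8 (4.34%), Trav14n-3 (4.30%), Trav14-2 (3.84%) and Trav9-1 (3.70%), followed by Trav13-1, Trav7-4, Trav3-3, Trav6-7-dv9 and Trav4-3 at 3.098% to 3.598%. Trav members with the same number in the symbol, near-identical or not, were also pooled as families. The Trav14 family led with 16.9%, 18.0% and 20.4%, ahead of Trav7 with 13.3%, 13.4% and 13.7%. Reads left out for matching several members equally well stayed left out of the families.

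After stimulation, 1 of 52 Trav segments differed by more than 1.5 fold in usage, and the interval included 0 for 50. That segment, Trav6d-5, rested on 29 and 22 barcodes, with a log2 ratio of -0.72 (-1.59 to 0.13), and Trav12-1 and Trav2 followed at -0.53 and -0.49. Trav7-5 had the highest ratio, 0.55 (0.19 to 0.91), from 2.39% to 3.49%, followed by Trav8-2 at 0.44 and Trav8n-2 at 0.40. The sum of the absolute usage differences divided by 2 was 7.33 percentage points for Trav. By families, 0 of 17 passed 1.5 fold.

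IFT20-KO over stimulated WT, 5 of 52 Trav segments passed 1.5 fold, 1 higher and 4 lower. The interval included 0 for 45, and the same summed difference was 8.90 percentage points. Trav14-1 (chr14:53554022-53554558) was higher, with 82, 101 and 169 assigned barcodes or 1.96%, 1.93% and 3.07%, a log2 ratio of 0.67 (0.31 to 1.04), and 0.40 in the UMI share. Trav7-6 and Trav12-1 followed at 0.52 (0.15 to 0.90) and 0.50 (-0.06 to 1.08). The lowest was Trav6-5 at -1.44 (-2.44 to -0.51), from 36 to 14 barcodes, with -0.19 in the UMI share.

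Trav13d-1 and Trav7d-4 were lower as well, at -0.66 (-1.51 to 0.16) and -0.59 (-1.24 to 0.04). So was Trav1 (chr14:52427928-52428876), the segment of the invariant receptor of MAIT cells, at -0.61 (-1.21 to -0.02). It had 47, 61 and 42 barcodes, or 1.12%, 1.16% and 0.762%, and 8.56, 5.53 and 3.73 CPM. Both its usage and its level were lower in IFT20-KO than in stimulated WT. Zbtb16 was detected in only 2 and 1 barcodes of the stimulated libraries, so the Trav1 barcodes cannot be taken as MAIT cells. Trav1 also belongs to the Trav members more than 1000 kb from the J segments, whose usage as a group is given below.

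The position of the chosen Trav segment differed between the stimulated libraries. Successive joinings of the α locus move from V segments near the J segments to those further away. The 21 Trav members within 500 kb of Traj61, the first J segment, held 26.8% (25.5 to 28.2), 27.0% (25.8 to 28.2) and 31.4% (30.2 to 32.7) of assigned barcodes. The 54 members more than 1000 kb away held 21.1% (19.9 to 22.4), 19.8% (18.7 to 20.9) and 16.9% (15.9 to 17.9), and the 53 between them 52.1%, 53.2% and 51.7%.

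The WT libraries thus overlapped in both outer groups, while the IFT20-KO library lay above both near the J segments and below both far from them. With barcodes of at least 5000 UMIs the near shares were 26.2%, 26.6% and 30.9% and the far shares 20.8%, 20.02% and 17.5%. Copies named d, which lie mostly far from the J segments, held 11.4%, 10.2% and 9.22%, and copies named n 12.9%, 12.99% and 12.2%. These shares hold countable reads only, and the 38 Trav members without a window of their own are largely missing from them. How this loss changes the shares by position or copy name was not tested. Whether this is a property of the genotype or of the mice in each library cannot be told apart.

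**Figure D3:**
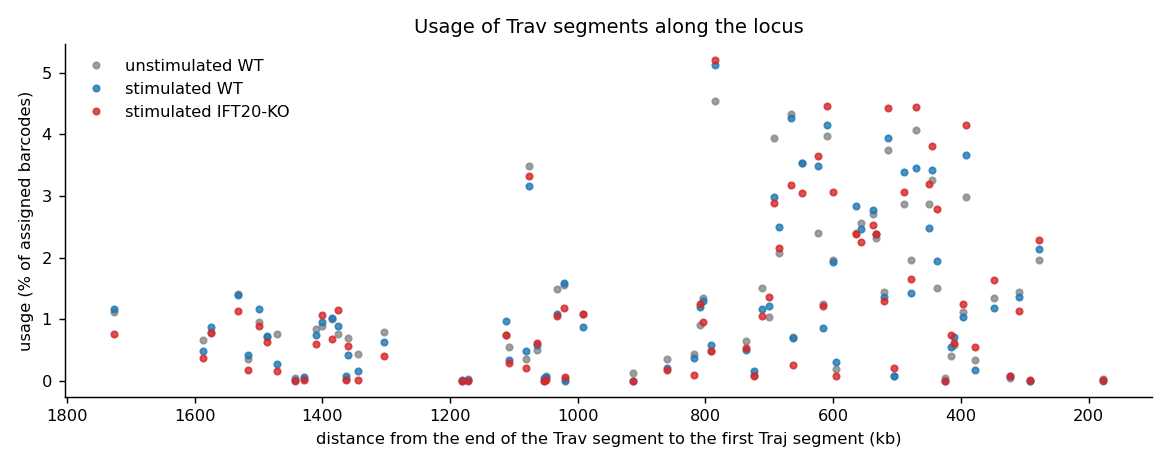
Each point is the usage of 1 Trav segment, as a percentage of the barcodes assigned to a Trav segment, against the distance in kb from the segment to the first Traj segment, with 1 library per colour. Segments above 3% lie within 800 kb of the J segments except Trav14d-3-dv8, near 1076 kb, at 3.17% to 3.49%.

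Many barcodes held UMIs of a second segment, and these were not spread evenly. The most frequent was Trbv13-2. The 120 bases from base 121 of the coding sequence are shown for Trbv13-2, for Trbv13-3 (chr6:41130147-41130585) and for Trbv14 (chr6:41135145-41135616), which follow it on the way to the J segments, because they tell how alike the members of a pair are. Capitals mark positions where Trbv13-2 and Trbv13-3 differ, and Trbv14 is in lower case throughout.
Trbv13-2: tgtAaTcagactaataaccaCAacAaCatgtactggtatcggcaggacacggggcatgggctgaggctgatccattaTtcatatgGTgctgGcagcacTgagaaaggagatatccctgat
Trbv13-3: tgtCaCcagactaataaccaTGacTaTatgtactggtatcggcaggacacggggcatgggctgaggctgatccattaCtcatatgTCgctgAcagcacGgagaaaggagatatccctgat
Trbv14: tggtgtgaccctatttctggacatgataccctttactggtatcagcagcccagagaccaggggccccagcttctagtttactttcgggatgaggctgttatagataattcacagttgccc

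Trbv13-2 was 90.6% identical to Trbv13-3 and 58.8% to Trbv14, and shared no 90-base window with either. In barcodes assigned to Trbv13-3, whose start lies 8.75 kb nearer to the J segments, 46.9% (42.2 to 51.7), 66.1% (61.8 to 70.2) and 58.5% (54.0 to 62.9) also held Trbv13-2. In barcodes assigned to Trbv14, 13.7 kb nearer, the shares were 47.5% (38.2 to 56.9), 69.7% (61.1 to 77.4) and 57.7% (48.5 to 66.6). Trbv13-1, on the other side of Trbv13-2 at 5.39 kb and 88.1% identical to it, gave 8.33%, 15.9% and 24.6%.

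Segments further towards the J segments gave lower shares. In barcodes of Trbv15, Trbv16 and Trbv17, 19.8 to 41.7 kb nearer, it was 30.8% to 37.7%, 44.5% to 53.1% and 43.9% to 46.7%. In barcodes of Trbv19, at 57.0 kb, it was 30.9%, 37.3% and 33.95%, and in those of Trbv26, at 106 kb, 7.77%, 14.7% and 23.9%. Trbv20, Trbv23, Trbv29 and Trbv30, at 66.9 to 160.0 kb, gave 26.4% to 34.6% in IFT20-KO. For Trbv31, which lies beyond the constant genes on the opposite strand and is joined by inversion, it was 10.7%, 16.7% and 23.9%.

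Grouped by side, segments within 50 kb of Trbv13-2 towards the J segments gave 39.6% (36.9 to 42.3), 55.7% (53.0 to 58.3) and 50.4% (47.8 to 53.0) of 1273, 1387 and 1450 barcodes. Segments on the far side gave 8.64% (7.55 to 9.83), 13.7% (12.5 to 14.9) and 24.1% (22.7 to 25.6) of 2430, 3072 and 3280 barcodes. Median depths of the near and far barcodes were alike within each library, 4716 and 4786.5 in unstimulated WT. In every library the near and far intervals were apart, and they stayed apart when each barcode was thinned to 1400 UMIs, at 14.4%, 11.7% and 14.4% against 3.66%, 3.19% and 7.43%. The far-side share was highest in the IFT20-KO library, as was the share of barcodes of other segments with Trbv1, at 3.94%, 10.5% and 18.8%. By the latter measure, all Trbv segments examined except Trbv4, Trbv5, Trbv12-2 and Trbv24 were highest in IFT20-KO. The part of free RNA in these shares was not tested.

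**Figure D4:**
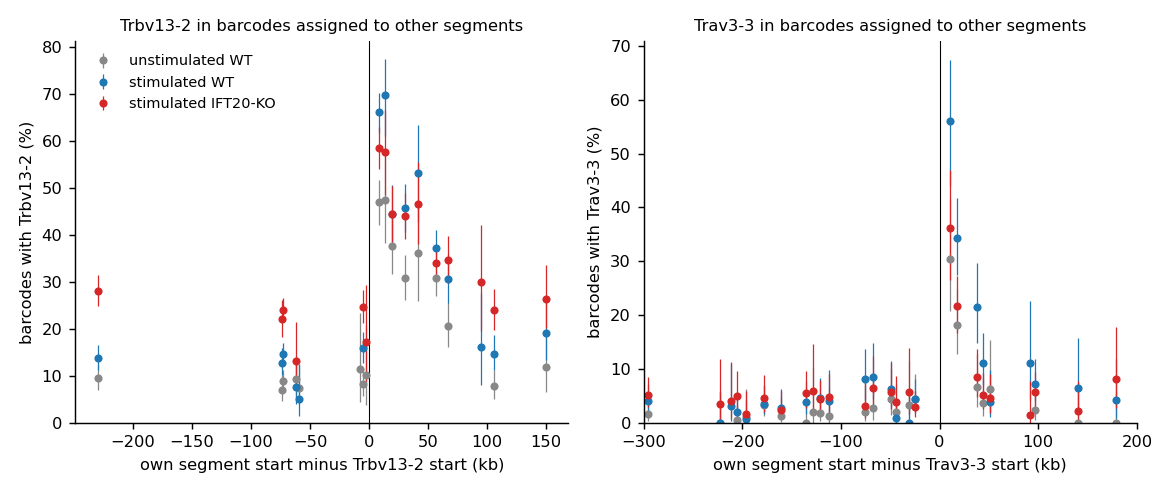
Points show the percentage of barcodes with at least 1 UMI of Trbv13-2 (left) or Trav3-3 (right) among barcodes assigned to another segment, against the distance in kb of that segment from Trbv13-2 or Trav3-3, positive towards the J segments, with 95% Clopper-Pearson intervals, for segments with at least 50 barcodes and without Trbv31. Just right of 0 the shares reach 69.7% for Trbv13-2 and 56.0% for Trav3-3 in stimulated WT, and left of 0 they stay at or below 28.1% and 8.53%.

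Trbv12-2 followed the same order at a lower level. In barcodes of segments within 50 kb towards the J segments, 15.3%, 19.4% and 14.7% held Trbv12-2, against 2.32%, 3.64% and 3.63% on the far side. In stimulated WT, it was found in 26.4% of barcodes of Trbv13-2, which starts 2.54 kb from it and is 56.0% identical to it. The pseudogene Trbv24 was found in 2.67%, 2.42% and 2.17% of barcodes not assigned to it, while 6, 6 and 3 barcodes were assigned to it.

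**Figure D5:**
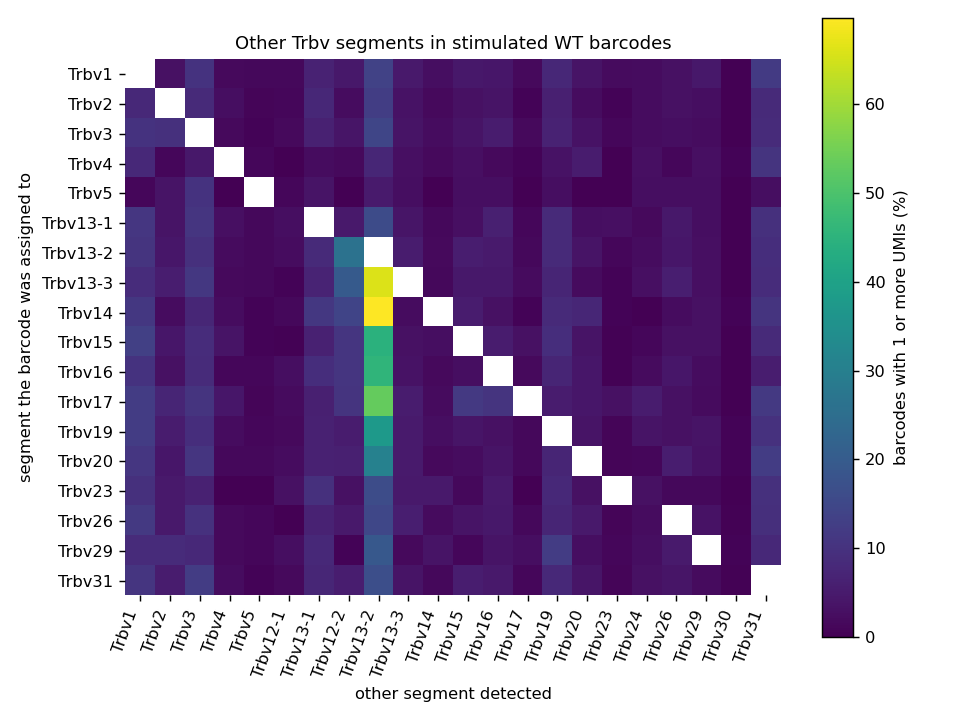
Colours give the percentage of stimulated WT barcodes with at least 1 UMI of the segment in the column, among barcodes assigned to the segment in the row, both in locus order, with own segments left white. In the column of Trbv13-2, the rows from Trbv13-3 to Trbv20 that hold at least 50 barcodes run from 30.6% to 69.7%, the latter in the row of Trbv14.

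Pairs of this kind were also looked for in the α locus. Trav3-3 (chr14:53665929-53666506) and Trav9-4 (chr14:53676141-53676630), the pair with the highest share in stimulated WT, are shown from base 121 to base 240 of the coding sequence in lower case because they are 58.5% identical and share no 90-base window.
Trav3-3: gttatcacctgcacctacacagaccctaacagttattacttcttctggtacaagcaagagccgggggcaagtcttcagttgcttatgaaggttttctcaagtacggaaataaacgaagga
Trav9-4: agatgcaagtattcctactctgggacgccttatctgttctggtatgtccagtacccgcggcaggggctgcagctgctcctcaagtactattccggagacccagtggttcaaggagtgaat

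In barcodes assigned to Trav9-4, 10.2 kb nearer to the J segments, Trav3-3 was found in 30.5% (20.8 to 41.6), 56.0% (44.1 to 67.5) and 36.3% (26.4 to 47.0). In barcodes of Trav4-4-dv10, at 17.7 kb, the shares were 18.2%, 34.3% and 21.6%, and in those of Trav5-4, at 38.1 kb, 6.67%, 21.5% and 8.52%. All segments on the far side of Trav3-3 together gave 1.96%, 3.48% and 4.10%.

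The contrast was not equally clear for every Trav target examined. Trav9-2 was found in 6.93% (4.93 to 9.42), 9.90% (7.75 to 12.4) and 8.18% (6.27 to 10.4) of barcodes of segments within 50 kb towards the J segments, against 1.69%, 1.87% and 2.29% on its far side. Its highest pair was with Trav4-3, 7.97 kb nearer, at 16.8%, 25.6% and 18.5%. Trav17 was found in 8.06% (2.67 to 17.8), 16.0% (8.55 to 26.3) and 10.6% (4.37 to 20.6) of the 62, 75 and 66 near barcodes, against 0.628%, 1.08% and 1.49%. For Trav8n-2 the near share in unstimulated WT, 2.26% (0.832 to 4.84), overlapped the far share, 1.55% (0.873 to 2.55). In the stimulated libraries its near shares were 11.99% and 8.17%, against 1.80% and 0.995%. Some high pairs were between distant Trav members with the same number in the symbol. In stimulated WT, Trav13d-1 was found in 17.4% of the 46 Trav13n-1 barcodes, 311 kb away, beside 0.639% in barcodes of other segments. Trav7-4 was found in 13.2% of the 53 Trav7d-4 barcodes, 691 kb away, beside 1.93%. Whether such copies split the UMIs of 1 gene was not tested.

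Over all segments, the nearest expressed neighbour on each side was compared with its share in barcodes of the other segments. For Trav, the neighbour away from the J segments was found in 3.91%, 5.10% and 4.12% of barcodes, beside 1.01%, 1.25% and 1.62% in barcodes of other segments, and its share was above that in 35 of 53, 40 of 54 and 33 of 52 pairs. The Trav neighbour towards the J segments was found in 1.77%, 1.78% and 1.93%, beside 1.13%, 1.26% and 1.53%, and was above in 25 of 53, 26 of 54 and 22 of 52 pairs. For Trbv, the neighbour away from the J segments was found in 9.60%, 13.1% and 13.1%, beside 3.89%, 6.12% and 7.81%. Its share was above in only 8 of 18, 9 of 19 and 10 of 19 Trbv pairs, so the pooled Trbv difference did not extend to most pairs in the WT libraries. The Trbv neighbour towards the J segments was found in 1.80%, 3.66% and 5.13%, below its share in other barcodes of 2.59%, 4.19% and 5.72%. The targets described singly were chosen after their values were seen.

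A second Trbv segment with at least 2 UMIs was present in 18.0% (17.1 to 19.0), 25.6% (24.7 to 26.6) and 25.9% (24.99 to 26.8) of assigned barcodes. Without Trbv13-2 and Trbv12-2 as the second, the shares were 13.2%, 17.4% and 18.9%. At 10 UMIs or more of the second they were 1.20%, 3.93% and 2.21%. A second Trav family with at least 2 UMIs was present in 17.1%, 22.1% and 17.7%. Thinned to 1400 UMIs, the Trbv shares were 3.84%, 2.62% and 2.60% and the Trav shares 2.64%, 3.25% and 2.80%, so the order of the full-depth Trbv shares did not remain at equal depth.

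Activation genes were compared between cells with different Trbv segments. Il2ra, which encodes the α chain of the interleukin-2 receptor, was found in 72.3% to 77.6% of barcodes over the 15 Trbv segments with at least 100 barcodes in stimulated WT, and all 15 intervals included the overall 75.4%. In IFT20-KO it ranged from 66.1% for Trbv1 to 74.1% for Trbv19, with 2 of 15 intervals apart from the overall 69.8%, and the median depth of these segments ranged from 8308 UMIs for Trbv1 to 10866.5 for Trbv2. Cd69, an early activation marker, ranged from 71.6% to 79.8% in stimulated WT and from 65.1% to 70.8% in IFT20-KO, beside 30.5% to 39.8% over the 16 such segments in unstimulated WT. Its overall shares were 33.9%, 75.3% and 67.8%, with 0 of 16, 1 of 15 and 1 of 15 intervals apart from them.

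Il2 was found in 12.7% to 22.7% of stimulated WT barcodes and 10.9% to 18.5% of IFT20-KO barcodes. Mki67, a gene of dividing cells, was found in 1.73% to 8.33% and 6.31% to 14.8%, and Nr4a1, an early target of receptor signals, in 35.3% to 43.0% and 29.9% to 41.6%. The overall shares were 17.3% and 14.6% for Il2, 4.91% and 8.80% for Mki67 and 39.5% and 33.3% for Nr4a1. Of the 15 intervals in each library, 1 and 2 lay apart from the overall share for Il2, 1 and 1 for Mki67 and 0 and 1 for Nr4a1. Foxp3, the factor of regulatory T cells, was highest in the 118 barcodes of Trbv29 in unstimulated WT, at 9.32% (4.75 to 16.1) beside 4.31% overall. Trbv29 was picked as the highest of 16 segments, and only 1 of the 16 intervals, its own, lay apart from the overall share. In barcodes of the same segment it was at 1.23% in stimulated WT and 3.37% in IFT20-KO, beside 1.69% and 2.40% overall.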

How the data were processed

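Spleen CD4+ T cells were measured in 3 single-cell libraries. The authors deposited whole-number counts of UMIs per gene and barcode, made with Cell Ranger (3.1.0 in the file headers) on mm10, the build in the submitters' processing notes, with no normalization. The labels name a 5′ library kit and the study's methods a 3′ kit, which differ in the part of the RNA read, so the ratio of V to constant gene UMIs depends on which was used. Levels are UMIs summed over kept barcodes per 1000000 UMIs (CPM). Intervals are 95% exact Poisson, Clopper-Pearson or, for ratios, binomial intervals and cover counting error only, since cells are not replicates. No doublet caller was run. The files held 8253, 10320 and 13932 barcodes. For comparison at equal depth, barcodes were thinned to 1400 UMIs, leaving out 801, 421 and 0. The whole genes by barcodes table was used for library totals and for the share of genes past 1.5 fold in CPM among those with at least 10 UMIs.

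Named were Trbv segments with at least 50 assigned barcodes in any library, the 10 Trav segments with the most UMIs in unstimulated WT, the 3 highest and 3 lowest usage ratios per comparison, Trav1, Trav11 and the other receptor genes. Trbv24, Trav7d-4, Trav13n-1, Trav9-4 and Trav5-4 were named after their values were seen. So were Trbv13-2, Trbv12-2, Trav3-3, Trav9-2, Trav17 and Trav8n-2 as targets of the pair analysis. The members, lists and rules were chosen with earlier results of these data known. Sequences are from GENCODE M21 transcripts without their untranslated part, and identity is the share of matching positions in a global alignment (edlib 1.3.9.post1). Python 3.11.15, numpy 2.4.6 and scipy 1.17.1 were used, and the ratio intervals and the assignment of Trbv segments were tested on simulated data. Assignment of Trav segments, or of segments with few UMIs per barcode, was not simulated. Alternatives varied the barcode filter, the scaling, the assignment rule and the depth. Some marker genes are not reported here.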

Additional observations from a re-analysis of the deposited data

How the results depend on the processing

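The 4 level ratios (log2, Trbv after stimulation, Trbv in IFT20-KO, then Trav likewise) were -0.66, 0.094, -0.96 and 0.21 with over 1000 genes and under 10% mitochondrial UMIs, -0.46, -0.10, -0.75 and -0.0087 under median-ratio scaling, -0.47, 0.07, -0.67 and 0.15 as the mean share per barcode, 0.73, -0.56, 0.44 and -0.47 as UMIs per barcode, -0.57, 0.37, -0.97 and 0.21 relative to the constant genes, -0.57, 0.023, -0.95 and 0.059 in barcodes of at least 5000 UMIs. All 4 reversed as UMIs per barcode and the IFT20-KO ratios reversed under median-ratio scaling. The count of Trbv segments after stimulation past 1.5 fold, 2, was 1 with 3 UMIs, 6 as a share of UMIs, 1 in barcodes of at least 5000 UMIs. The count of Trbv segments in IFT20-KO past 1.5 fold, 2, was 1 with 3 UMIs, 0 as a share of UMIs, 0 thinned to 1400 UMIs. The Trbv4 ratio after stimulation passed 1.5 fold as a share of UMIs (-0.97) and thinned (-2.39). Thinned, Trbv5 had under 50 assigned barcodes over each pair of libraries and gave no ratio. The count of Trav segments after stimulation past 1.5 fold, 1, was 0 with over 1000 genes, 4 assigned with 1 UMI, 4 with 80% of the chain, 5 as a share of UMIs, 5 thinned to 1400 UMIs, 3 in barcodes of at least 5000 UMIs, 0 by families. The count of Trav segments in IFT20-KO past 1.5 fold, 5, was 1 as a share of UMIs, 3 thinned to 1400 UMIs, 1 by families. The share with a second Trbv segment was 48.9%, 67.5% and 81.5% at 1 UMI, 10.1%, 15.5% and 12.9% at 3 UMIs, 3.84%, 2.62% and 2.6% thinned, 13.2%, 17.4% and 18.9% without Trbv13-2 and Trbv12-2, 27.6% in stimulated WT with over 1000 genes. The share with a second Trav family was 47.3%, 54.3% and 59.7% at 1 UMI, 8.29%, 12.7% and 9.05% at 3 UMIs, 2.64%, 3.25% and 2.8% thinned, 23.4% in stimulated WT with over 1000 genes. The share with Trbv13-2 beside near segments was 15.5%, 29.9% and 24.6% with 2 UMIs of it, 14.4%, 11.7% and 14.4% thinned, 35.8%, 49.7% and 46.2% without Trbv13-3, 60.2% and 57.7% in the stimulated libraries when assigned with 5 UMIs. The share with Trbv13-2 beside far segments was 1.93%, 4.17% and 5.82% with 2 UMIs of it, 3.66%, 3.19% and 7.43% thinned, 15.3% and 28.1% in the stimulated libraries when assigned with 5 UMIs. Trav usage near the J segments was 25.1%, 24.8% and 30.3% with 80% of the chain, 27.99%, 29.7% and 33.5% thinned, 27.8%, 29.5% and 32.7% as a share of UMIs. Trav usage far from them was 22.1%, 21.4% and 17.6% with 80% of the chain, 19.7%, 19.3% and 14.7% thinned, 20.5%, 19.4% and 16.8% as a share of UMIs. Thinned, the range over segments was 12.4 points for Il2ra in stimulated WT and 10.4 for Cd69 in IFT20-KO. The depth of 5000 UMIs, the second segments without Trbv13-2 and Trbv12-2, and all alternatives for Trbv13-2 and for distance to the J segments were chosen after seeing the data. The causes of these differences were not tested. No paired analysis was possible because each group had 1 library and no result came from a test. Depth limits the segments with few assigned barcodes.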
